A study of Rattus norvegicus with 16 samples.

Results

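The liver makes most of the complement and coagulation proteins of blood plasma, and 34 genes for such proteins were followed here across a rat study of diet and Tspo loss. They were taken as the rows of the deposited tables that carry the 34 listed gene symbols. Of these, 33 had a row among the 17168 genes of the tables, and all 33 passed the filter on low counts that left 11162 genes for testing. C5, which encodes the component split to start the terminal pathway, was not analysed here. By role the 33 members comprise 7 that start the classical and lectin pathways, 4 of C3 and the alternative pathway, 5 of the terminal pathway, 6 vitamin K-dependent factors, factor V and the B subunit of factor XIII, 4 of the contact system, 3 serpins and 2 of fibrinolysis.

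Complement is a cascade of plasma proteases and binding proteins that tags microbes and damaged cells, and whose terminal components assemble a pore in the target membrane. Coagulation is a second protease cascade, which ends in thrombin and fibrin, is held back by serpins and the protein C system, and is undone by plasmin. Hepatocytes secrete nearly all of these proteins, and several of them change in inflammation as acute-phase proteins.

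Liver RNA came from Sprague Dawley rats aged 20 weeks, in 4 groups of 4 libraries. The groups were tspo -/- (knockout) and wild type on a methionine- and choline-deficient (MCD) diet, and knockout and wild type on chow. Rats of every group ate normally until 12 weeks of age and then had their diet for 8 weeks. Tspo encodes a cholesterol-binding protein of the outer mitochondrial membrane, and the diet is a model of fatty liver with inflammation (steatohepatitis). The series title speaks of mice, but every organism label is rat. The labels do not state the part of Tspo that was removed, the number of founder lines or whether each library is a different rat. P-values therefore reflect how far libraries of a group lie apart, which may be technical.

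Library totals ran from 8745756 to 15762660 counts. Levels are CPM (counts scaled to library size), with library sizes adjusted by TMM, a method that sets the bulk of genes equal between libraries, and changes are log2 folds ± SE. Called means an adjusted p (Benjamini-Hochberg, 11162 genes) under 0.05 in the quasi-likelihood test of edgeR. Albumin lay between 60933 and 167237 CPM in all libraries. Tspo was 0.656 to 1.66 CPM in 6 of the 8 libraries labelled knockout, but 4.17 CPM in the library labelled knockout on MCD number 1 and 4.42 CPM in that labelled knockout on chow number 4. The wild type had 7.63 to 9.34 CPM on MCD and 3.61 to 5.23 CPM on chow. Between genotypes Tspo had a log2 fold of -2.07 ± 0.45 (adjusted p = 1) on MCD and -1.23 ± 0.49 (adjusted p = 0.46) on chow, called on neither diet. Without the 3 libraries named next the folds were -2.68 ± 0.22 on MCD (adjusted p = 4.88e-05) and -1.93 ± 0.28 on chow (adjusted p = 0.00461). The knockout libraries left out there were doubted for their high Tspo, so these folds are no independent check of the knockout. Both doubtful libraries and the wild type on chow number 4 also stood apart on the second principal component (-44.2, -63.7 and -33, against -9.1 or above in the other 13). Results are therefore also given without these 3 libraries.

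On the MCD diet most of these genes were lower in both genotypes. In the knockout 22 of the 33 members fell and 2 rose, where 18.5% of all tested genes were called lower and 21.9% higher (40.4% either way). In the wild type 20 fell and 2 rose, against 15.9% of all genes called lower and 18.2% called higher (34.1% either way). Without the 3 libraries that stood apart 27 fell and 2 rose in the knockout (23.8% and 27.9% of all genes, 51.6% either way), and 23 fell and 2 rose in the wild type (24.7% and 25.8%, 50.5% either way). DESeq2, another count model, called 27 members in the knockout and 24 in the wild type (43.5% and 38.1% of all genes). When only changes larger than 0.5 (log2) were tested for, 14 members fell and 2 rose in the knockout (7.62% and 11.9% of all genes, 19.5% either way), and 10 fell and 2 rose in the wild type (5.86% and 8.41%, 14.3% either way). The median log2 fold of the members was -0.858 in the knockout and -0.69 in the wild type, while the median over all genes was 0.041 and -0.002.

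The same 20 members fell in both genotypes, as did 12.4% of all genes. They are Mbl1 and Masp2 of the lectin pathway, Cfb, Cfd and Cfi of the alternative pathway, C6, C8a, C8b, C8g and C9 of the terminal pathway, F2, F10, Proc and Pros1, the contact factors F12 and Klkb1, the serpins Serpinc1 and Serpinf2, and Plg and Cpb2 of fibrinolysis. F5 and the row named Kng1, which cannot be tied to 1 present gene, rose in both, against 14.9% of all genes. F13b and Serpind1 were called lower in the knockout alone, and C1r, C1s, C2, Masp1, Mbl2, C3, F7, F9 and F11 were called in neither genotype (52.8% of all genes were called in neither). Without the 3 libraries that stood apart F7, F11 and Serpind1 were called lower in both genotypes, and C1s, Mbl2 and F9 in the knockout. Every MCD library lay below every chow library for 21 members in the knockout and 20 in the wild type, which held for 14% and 18% of all genes. In bulk RNA fewer hepatocytes and less RNA per hepatocyte cannot be told apart.

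**Figure D1:**
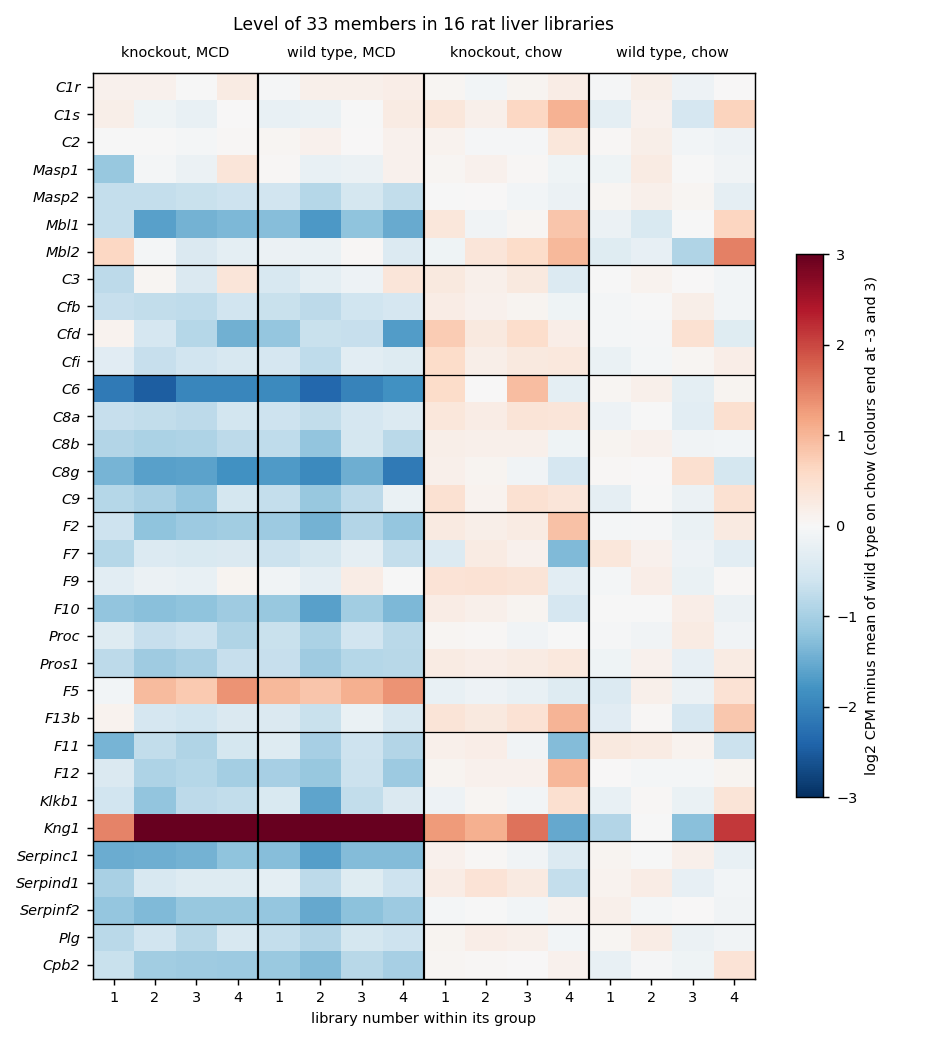
Level of each of 33 members (rows, grouped by role) in each of 16 libraries (columns), as log2 CPM minus the mean of the wild type on chow, with blue below and red above that mean and colours ending at -3 and 3. The 8 MCD libraries on the left are blue for most members, deepest for C6 and C8g, while F5 and Kng1 are mostly red there. In the library labelled knockout on MCD number 1 Kng1 is palest and F5 lies near the mean of the wild type on chow, slightly below it.

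How far these genes fell depended on the scale. TMM factors were 1.139 to 1.348 in the MCD libraries, and 0.644 to 0.901 in the chow libraries other than wild type number 1 (1.001). Summed over the 33 members, the level on the TMM scale was 22987 ± 3613 CPM in the MCD-fed knockout, against 37098 ± 2132 CPM in the chow-fed knockout. The wild type had 23324 ± 3534 CPM on MCD, against 33384 ± 1309 CPM on chow (SD, n = 4 each). The MCD libraries thus lay below all chow libraries of their genotype on this scale. As a share of the library total, however, the 33 members held 2.83% ± 0.609 in the MCD-fed and 2.76% ± 0.4 in the chow-fed knockout. Wild-type libraries held 2.96% ± 0.574 on MCD and 2.93% ± 0.315 on chow, and these ranges overlap. A large part of each sum was C3, which was not called. Its mean was 9121 CPM on MCD and 10804 CPM on chow in the knockout, and 9305 and 10034 CPM in the wild type. With library totals in place of TMM the median over all genes moved by 0.724 in the knockout and 0.53 in the wild type.

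On that unscaled basis 6 members fell and 4 rose in the knockout (3.63% and 57.8% of all genes, 61.4% either way), and 8 fell and 4 rose in the wild type (4.55% and 43.1%, 47.6% either way). Mbl1, C6, C8g, F2, Serpinc1 and Serpinf2 fell in both genotypes on both scales, and F5 and Kng1 rose in both on both. C1r and C2 were called higher in both genotypes with library totals only. All changes below are on the TMM scale, that is, relative to the bulk of genes.

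**Figure D2:**
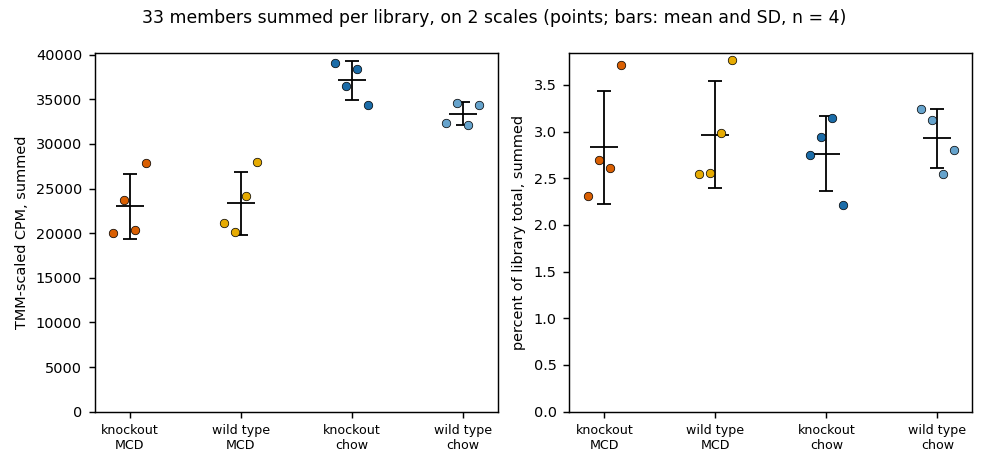
Level summed over 33 members per library (points), with the mean and SD of each group of 4 (bars), in TMM-scaled CPM on the left and in percent of the library total on the right. The MCD groups lie below the chow groups on the left (22987 and 23324 against 37098 and 33384 CPM) and level with them on the right (2.83% and 2.96% against 2.76% and 2.93%). C3, which was not called, is a large part of each sum.

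The promoters of some members that moved far or in opposite directions are shown, with a motif marked where it was found. The sequences are from RefSeq (build GRCr8), matched by gene symbol, and cover the 250 bases before the annotated start, 5′ to 3′ on the coding strand. Capitals mark exact matches on either strand to the letters TTGCNNAA (C/EBP, a family of factors that drive many liver genes). Antithrombin (Serpinc1, chr13:75790308-75790557 on the plus strand) fell and holds the letters. C6 (chr2:55573383-55573632 on the plus strand) had the largest fall and holds them. Factor V (F5, chr13:79046407-79046656 on the plus strand) rose and does not hold them. Other members did not follow this order. Mbl1, F2, F10 and F12 fell in both genotypes without the letters, while C1r and C3 hold them and were not called.
Serpinc1: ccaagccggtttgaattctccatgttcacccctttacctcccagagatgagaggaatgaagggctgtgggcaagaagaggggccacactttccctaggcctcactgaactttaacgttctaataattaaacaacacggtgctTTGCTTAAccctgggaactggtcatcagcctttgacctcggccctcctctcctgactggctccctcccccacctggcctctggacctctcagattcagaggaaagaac
C6: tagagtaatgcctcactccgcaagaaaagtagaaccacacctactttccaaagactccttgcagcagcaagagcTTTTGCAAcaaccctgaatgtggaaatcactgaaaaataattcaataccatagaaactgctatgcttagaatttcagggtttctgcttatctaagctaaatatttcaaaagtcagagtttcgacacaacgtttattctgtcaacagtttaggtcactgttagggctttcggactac
F5: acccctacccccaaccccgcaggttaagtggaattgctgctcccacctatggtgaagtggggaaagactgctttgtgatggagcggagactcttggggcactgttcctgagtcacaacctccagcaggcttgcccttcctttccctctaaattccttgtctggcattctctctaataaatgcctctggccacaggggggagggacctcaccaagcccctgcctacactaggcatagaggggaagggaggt
Over 24 measured members with a promoter in the table, searched from 250 bases before to 50 after the start, the C/EBP letters stood in 8, or 33.3%, against 10.6% of all 33469 promoters. The STAT letters TTCNNNGAA stood in 3 (C8a, F9 and Pros1), or 12.5%, against 8.87%, and the HNF4 letters CAAAGTCCA in 0, against 0.391%. With 1 letter of mismatch allowed the share was 83.3% of members against 82.5% of all promoters for C/EBP, 75% against 73.7% for STAT and 8.3% against 8.67% for HNF4. These motifs do not overlap one another in the members. Of the 15 of these members that fell in both genotypes 5 held the C/EBP letters, and of the other 9 members 3 did. A match is a description of the sequence and was not tested as a binding site.

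**Figure D3:**
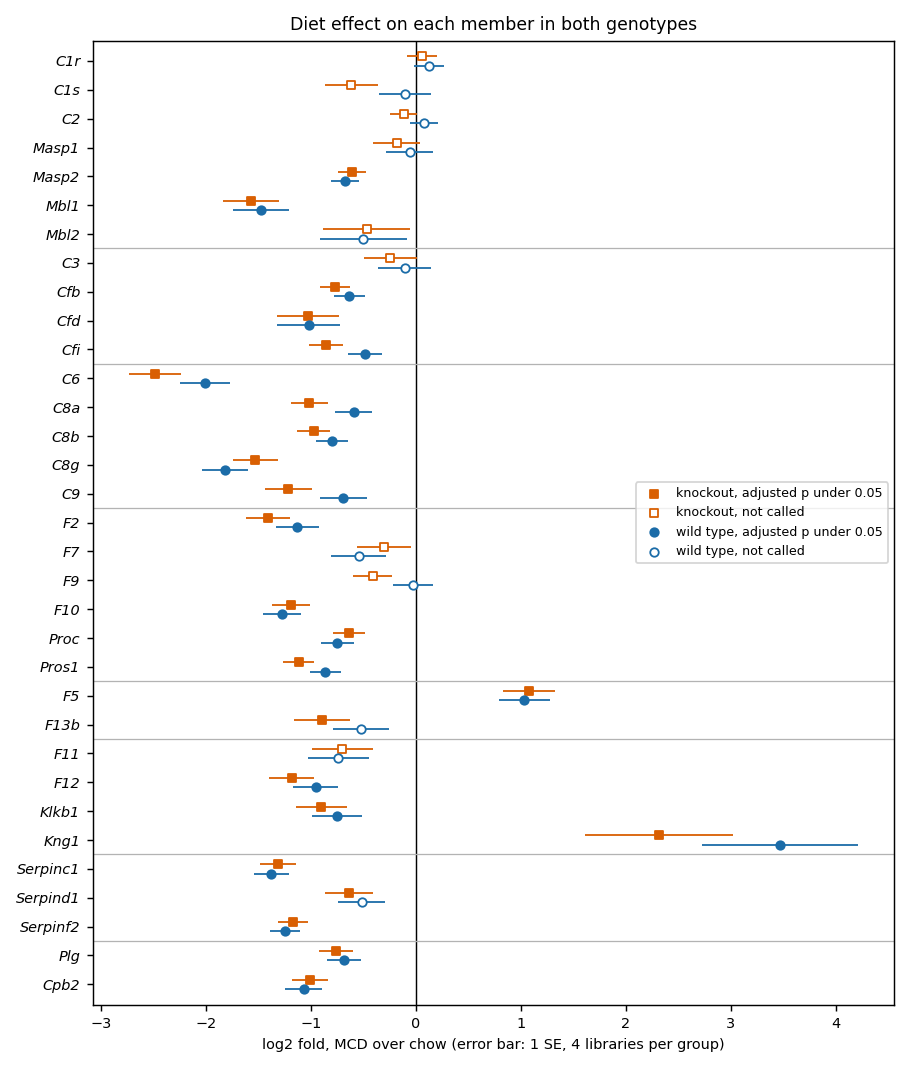
Log2 fold of MCD over chow for each of 33 members in the knockout (orange squares) and the wild type (blue circles), with bars of 1 SE and filled symbols for adjusted p under 0.05. Most points lie left of 0 in both genotypes, with C6 farthest left at -2.49 and -2.01, and F5 and Kng1 lie right of 0.

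Of the 7 members that start the classical and lectin pathways 2 fell in each genotype. Mbl1 encodes mannose-binding lectin A, which recognises sugars on microbes. Its level in the knockout was 164, 88.0, 101 and 107 CPM on MCD, against 344, 253, 282 and 485 CPM on chow. Its wild-type level was 112, 81.7, 117 and 95.4 CPM on MCD, against 239, 197, 270.3 and 421 CPM on chow. All MCD libraries were lower, with a log2 fold of -1.57 ± 0.27 (adjusted p = 0.000388) in the knockout and -1.47 ± 0.27 (adjusted p = 0.000735) in the wild type. Masp2 encodes the protease that such lectins activate. Levels of Masp2 in the knockout were 139, 139, 144 and 147 CPM on MCD, against 226, 229.9, 215 and 201 CPM on chow. Wild-type levels of Masp2 were 154, 126, 157 and 137 CPM on MCD, against 238, 255, 236 and 189 CPM on chow. The ranges did not overlap, and the log2 fold was -0.61 ± 0.13 (adjusted p = 0.00224) in the knockout and -0.68 ± 0.13 (adjusted p = 0.00141) in the wild type.

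C1s, the protease of the C1 complex that cleaves C4 and C2, was not called. Levels of C1s in the knockout were 660.1, 539, 502 and 594 CPM on MCD, against 745, 652, 899.5 and 1220.4 CPM on chow. Wild-type levels of C1s were 506, 508, 579.9 and 703 CPM on MCD, against 482, 642, 415 and 931 CPM on chow. Both ranges overlapped, and the log2 fold was -0.62 ± 0.25 (adjusted p = 0.0577) in the knockout and -0.10 ± 0.25 (adjusted p = 0.768) in the wild type. Without the 3 libraries that stood apart C1s was called lower in the knockout (adjusted p = 0.0338), as by DESeq2 (adjusted p = 0.0272). The partner protease C1r (log2 fold 0.058 in the knockout and 0.12 in the wild type) and C2 (-0.12 and 0.077) stayed near 0. C1r averaged 862 ± 66.2 CPM in the MCD-fed and 828 ± 75.0 CPM in the chow-fed knockout. Masp1, another lectin pathway protease, had log2 folds of -0.19 and -0.060 in the knockout and the wild type. Mbl2, the second mannose-binding lectin, had -0.47 and -0.50. Mbl2 was 376 CPM in the wild type on chow number 4 and 70.1 to 112 CPM in the other 3 libraries of that group. Without the 3 libraries that stood apart the log2 fold of Mbl2 was -0.55 ± 0.19 in the knockout (adjusted p = 0.0275) and 0.30 ± 0.18 in the wild type (adjusted p = 0.188), where its sign turned.

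In the alternative pathway the proteases and the inhibitor fell while C3 itself was not called. C3 encodes the central component, whose cleavage all pathways share. Levels of C3 in the knockout were 5780.0, 10403, 7397 and 12906 CPM on MCD, against 12305, 11091, 12218 and 7601 CPM on chow. Wild-type levels of C3 were 7134, 8146, 8981 and 12958 CPM on MCD, against 9893, 10759.8, 10056 and 9425 CPM on chow. The MCD libraries spread widely on both sides of chow, and the log2 fold was -0.24 ± 0.25 (adjusted p = 0.457) in the knockout and -0.11 ± 0.25 (adjusted p = 0.766) in the wild type. Cfb encodes factor B, which forms the C3 convertase with C3b. Levels of Cfb in the knockout were 1148, 1099.5, 1078 and 1231 CPM on MCD, against 2134, 2015, 1938 and 1686 CPM on chow. Wild-type levels of Cfb were 1169, 1076, 1222 and 1291 CPM on MCD, against 1758, 1835, 2067 and 1729.7 CPM on chow. All MCD libraries were lower, with a log2 fold of -0.77 ± 0.14 (adjusted p = 0.000813) in the knockout and -0.64 ± 0.14 (adjusted p = 0.00358) in the wild type.

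Cfi encodes factor I, a protease that inactivates C3b. Levels of Cfi in the knockout were 844, 661, 711 and 762 CPM on MCD, against 1561, 1208, 1304 and 1328 CPM on chow. Wild-type levels of Cfi were 758, 627, 859.7 and 820.4 CPM on MCD, against 930.2, 1018, 1115 and 1221 CPM on chow. Its ranges did not overlap, and its log2 fold was -0.86 ± 0.16 (adjusted p = 0.00082) in the knockout and -0.48 ± 0.16 (adjusted p = 0.0294) in the wild type. Cfd encodes factor D, which cleaves factor B and is best known from fat cells. Levels of Cfd in the knockout were 13.4, 8.7, 6.91 and 4.58 CPM on MCD, against 21.0, 15.1, 18.02 and 14.2 CPM on chow. Wild-type levels of Cfd were 5.53, 7.83, 7.64 and 3.86 CPM on MCD, against 11.9, 12.1, 17.05 and 9.71 CPM on chow. MCD libraries were lower in both, at a log2 fold of -1.03 ± 0.29 (adjusted p = 0.0116) in the knockout and -1.02 ± 0.30 (adjusted p = 0.015) in the wild type, from counts of 73 to 192. Of the fat cell markers, Adipoq and Plin1 were at most 0.134 and 0.0950 CPM in any library and Lep was at 0 in all groups. The whole list of 6 fat cell markers summed to 47.4 to 62.3 CPM in the MCD-fed and 24.5 to 50.7 CPM in the chow-fed knockout. Wild-type sums were 47.9 to 64.8 CPM on MCD and 14.7 to 66.8 CPM on chow. Of the 2 tested markers 1 rose in the knockout and 0 in the wild type, where 21.9% and 18.2% of all genes were called higher. The part of these markers in the fall of Cfd was not tested. The calls of Cfi and Cfd in the wild type were lost when single libraries were left out. For Cfi these were wild-type chow numbers 3 and 4 and MCD numbers 1 and 2 (adjusted p up to 0.0988), and for Cfd wild-type chow number 3 and MCD number 4 (up to 0.0527).

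All 5 measured members of the terminal pathway, which together build the membrane attack complex, fell in both genotypes. C6 showed the largest fall of all members in each genotype. Levels of C6 in the knockout were 105, 82.1, 117 and 117 CPM on MCD, against 664, 462, 866 and 373 CPM on chow. Wild-type levels of C6 were 122, 89.5, 114 and 130.5 CPM on MCD, against 477, 507, 373 and 482 CPM on chow. The MCD range lay far below the chow range in both, and the log2 fold was -2.49 ± 0.24 (adjusted p = 5.2e-06) in the knockout and -2.01 ± 0.24 (adjusted p = 2.48e-05) in the wild type. That left C6 at 17.8% of its chow level in the knockout and at 24.8% in the wild type. C8 is made of an alpha, a beta and a gamma chain, encoded by C8a, C8b and C8g. Levels of C8g in the knockout were 138, 117, 118 and 103 CPM on MCD, against 404, 379.9, 335 and 255 CPM on chow. Wild-type levels of C8g were 111, 95.9, 131 and 82.6 CPM on MCD, against 371, 367, 501 and 248.5 CPM on chow. C8g fell by more than its partner chains, to 34.6% of chow in the knockout and 28.2% in the wild type, with a log2 fold of -1.53 ± 0.22 (adjusted p = 8.99e-05) in the knockout and -1.82 ± 0.22 (adjusted p = 2.79e-05) in the wild type. This order of the chains was not tested.

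Levels of C8b in the knockout were 306, 291, 296 and 327 CPM on MCD, against 634, 622, 629 and 512 CPM on chow. Wild-type levels of C8b were 335, 248.9, 392 and 321 CPM on MCD, against 594, 612, 524 and 529 CPM on chow. No library of one diet overlapped the other, and the log2 fold was -0.97 ± 0.16 (adjusted p = 0.000239) in the knockout and -0.80 ± 0.16 (adjusted p = 0.00123) in the wild type. Levels of C8a in the knockout were 543, 521, 509 and 599 CPM on MCD, against 1101, 1027, 1146 and 1118 CPM on chow. Wild-type levels of C8a were 571, 528, 616 and 653 CPM on MCD, against 781, 866, 704 and 1229 CPM on chow. The log2 fold of C8a was -1.02 ± 0.17 (adjusted p = 0.000399) in the knockout and -0.60 ± 0.17 (adjusted p = 0.0148) in the wild type, with no overlap. C9 encodes the subunit that polymerises into the pore. Levels of C9 in the knockout were 818, 754, 669.7 and 1030.4 CPM on MCD, against 2057, 1609, 2029 and 1921 CPM on chow. Wild-type levels of C9 were 915, 679, 859 and 1305 CPM on MCD, against 1245, 1479, 1312 and 2035 CPM on chow. C9 had a log2 fold of -1.22 ± 0.22 (adjusted p = 0.000663) in the knockout and -0.69 ± 0.22 (adjusted p = 0.0239) in the wild type, and its ranges overlapped in the wild type, through MCD library number 4, but not in the knockout. The wild-type call of C9 was lost without chow number 4 or MCD number 1, 2 or 3 of that genotype (adjusted p up to 0.0826).

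Among the 6 vitamin K-dependent proteins, which need a carboxylated domain to bind membranes, 4 fell in both genotypes. F2 encodes prothrombin, the precursor of thrombin. Levels of F2 in the knockout were 1587, 1058, 1150.0 and 1189.6 CPM on MCD, against 2989.8, 2798, 2919 and 4536 CPM on chow. Wild-type levels of F2 were 1149.6, 922, 1336 and 1109.6 CPM on MCD, against 2356, 2419, 2158 and 2980.0 CPM on chow. Its highest value was in the library labelled knockout on chow number 4, no MCD library reached the chow range, and the log2 fold was -1.41 ± 0.21 (adjusted p = 0.000113) in the knockout and -1.13 ± 0.20 (adjusted p = 0.000704) in the wild type. F10 encodes factor X, which activates prothrombin. Levels of F10 in the knockout were 244, 230.2, 239 and 265 CPM on MCD, against 643, 614, 587 and 392 CPM on chow. Wild-type levels of F10 were 250.3, 179.8, 269 and 217 CPM on MCD, against 545, 549, 637 and 488 CPM on chow. F10 fell without overlap, with a log2 fold of -1.19 ± 0.18 (adjusted p = 0.000145) in the knockout and -1.28 ± 0.18 (adjusted p = 0.000101) in the wild type.

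Pros1 encodes protein S, the cofactor of activated protein C. Levels of Pros1 in the knockout were 133, 109, 115 and 140.5 CPM on MCD, against 272, 259.5, 269 and 281 CPM on chow. Wild-type levels of Pros1 were 141, 109, 126 and 128 CPM on MCD, against 209, 248.7, 191 and 272 CPM on chow. Both genotypes were without overlap, and the log2 fold was -1.12 ± 0.15 (adjusted p = 5.55e-05) in the knockout and -0.86 ± 0.15 (adjusted p = 0.000496) in the wild type. Proc, for protein C itself, an anticoagulant protease, averaged 362 ± 55.6 CPM on MCD and 564 ± 28.2 CPM on chow in the knockout. Wild-type Proc averaged 337 ± 37.8 CPM on MCD and 567 ± 68.7 CPM on chow (SD, n = 4 each). Its log2 fold was -0.64 ± 0.15 (adjusted p = 0.00447) in the knockout and -0.75 ± 0.15 (adjusted p = 0.0019) in the wild type. F7 and F9, for factors VII and IX, which start and amplify factor X activation, were not called. F7 had log2 folds of -0.31 ± 0.26 in the knockout and -0.55 ± 0.26 in the wild type, and F9 had -0.41 ± 0.19 and -0.031 ± 0.19. Without the 3 libraries that stood apart F7 was called lower in both genotypes (adjusted p = 0.037 in the knockout and 0.00334 in the wild type). F9 was then called lower in the knockout alone (adjusted p = 0.0103), as by DESeq2 (adjusted p = 0.0307).

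Factor V, the cofactor of factor X, rose. Levels of F5 in the knockout were 84.1, 173, 156 and 228 CPM on MCD, against 77.3, 81.0, 76.4 and 68.7 CPM on chow. Wild-type levels of F5 were 177, 161, 187 and 229 CPM on MCD, against 67.8, 99.5, 79.0 and 122 CPM on chow. F5 was higher in every MCD library than in any chow library of its genotype, with the lowest MCD value in the library labelled knockout on MCD number 1. The log2 fold was 1.08 ± 0.25 (adjusted p = 0.00311) in the knockout and 1.03 ± 0.25 (adjusted p = 0.00494) in the wild type, or 2.11 and 2.05 times the chow level. With an index of long minus short messages in the model, described with the markers below, F5 was not called (adjusted p = 0.0861 in the knockout and 0.0956 in the wild type). That index moved with diet too, so the effects of the index and of diet cannot be told apart. F13b encodes the carrier subunit of factor XIII, which crosslinks fibrin. Levels of F13b in the knockout were 293, 193, 181 and 202 CPM on MCD, against 357, 337, 369 and 557 CPM on chow. Wild-type levels of F13b were 203, 173, 239 and 196 CPM on MCD, against 216, 280.1, 192 and 481 CPM on chow. The ranges parted in the knockout and overlapped in the wild type, and the log2 fold was -0.90 ± 0.27 (adjusted p = 0.0146) in the knockout and -0.53 ± 0.27 (adjusted p = 0.134) in the wild type. The 2 folds of F13b were not shown to differ (difference -0.37 ± 0.38, unadjusted p = 0.336). Without the 3 libraries that stood apart the difference was -0.71 ± 0.21 (unadjusted p = 0.0036, adjusted p = 0.126).

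**Figure D4:**
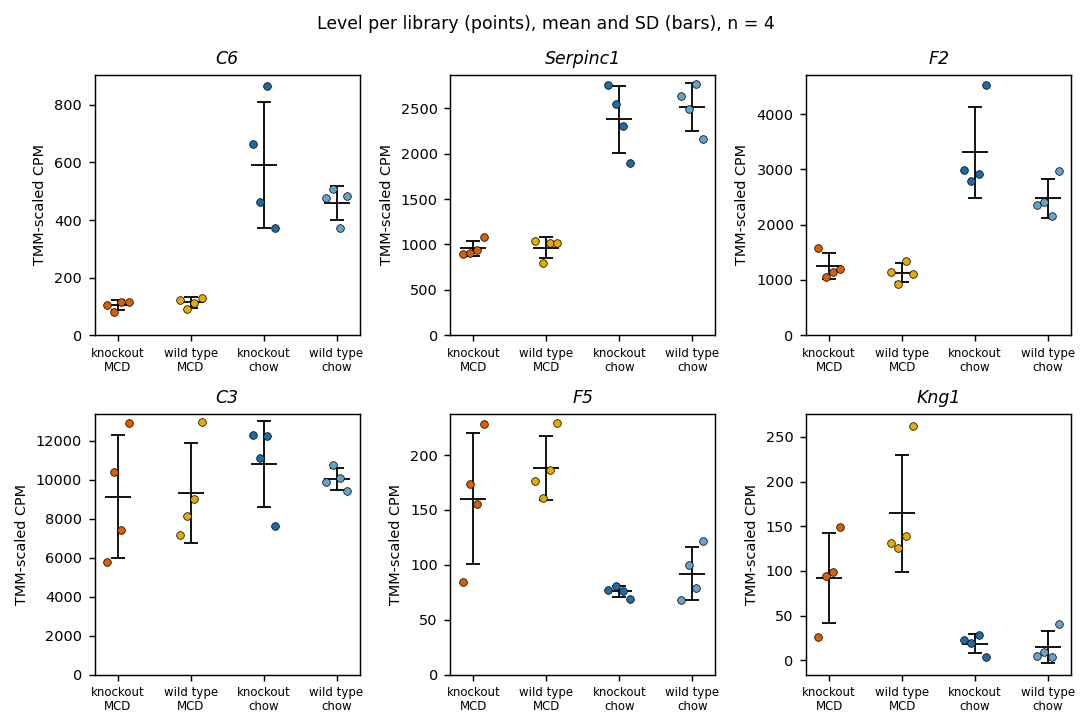
Level of 6 members in TMM-scaled CPM per library (points), with the mean and SD of 4 libraries (bars), for the knockout and the wild type on MCD and the knockout and the wild type on chow. C6, Serpinc1 and F2 are lower on MCD with no overlap, C3 overlaps between diets, and F5 and Kng1 are higher on MCD.

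In the contact system, which can start clotting on negatively charged surfaces and releases bradykinin, 2 of the 3 proteases (F12 and Klkb1) fell and the row named Kng1 rose. F12 encodes factor XII. Levels of F12 in the knockout were 594, 423, 447 and 398 CPM on MCD, against 857, 881, 886 and 1607 CPM on chow. Wild-type levels of F12 were 407, 365, 514 and 379 CPM on MCD, against 812, 779.6, 780.3 and 857 CPM on chow. F12 was lower in all MCD libraries and its top value was that of number 4 labelled knockout on chow. Its log2 fold was -1.18 ± 0.22 (adjusted p = 0.000632) in the knockout and -0.95 ± 0.21 (adjusted p = 0.00325) in the wild type. Klkb1 encodes plasma prekallikrein. Levels of Klkb1 in the knockout were 159, 105, 137 and 143 CPM on MCD, against 214, 247, 224 and 332 CPM on chow. Wild-type levels of Klkb1 were 174, 79.7, 141 and 175 CPM on MCD, against 204, 245, 205 and 308 CPM on chow. Klkb1 ranges did not overlap, and the log2 fold was -0.90 ± 0.24 (adjusted p = 0.00766) in the knockout and -0.76 ± 0.24 (adjusted p = 0.0226) in the wild type, with the wild-type call lost without its MCD number 2 or chow number 4 (adjusted p up to 0.0654). F11, for factor XI, had log2 folds of -0.70 ± 0.29 (adjusted p = 0.0628) in the knockout and -0.74 ± 0.29 (adjusted p = 0.0576) in the wild type and was not called in either. Without the 3 libraries that stood apart F11 was called lower in both (adjusted p = 0.000645 in the knockout and 0.000132 in the wild type). DESeq2 on all libraries also called it lower in both (adjusted p = 0.0341 and 0.0352).

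Kng1 is the symbol of a kininogen, the source of bradykinin. Levels of Kng1 in the knockout were 25.9, 94.1, 99.2 and 149 CPM on MCD, against 22.5, 19.4, 28.6 and 3.21 CPM on chow. Wild-type levels of Kng1 were 131, 126, 139 and 263 CPM on MCD, against 5.10, 9.30, 3.90 and 40.7 CPM on chow. Its MCD levels were the higher ones, except that the library labelled knockout on MCD number 1 fell within the chow range, and the log2 fold was 2.32 ± 0.71 (adjusted p = 0.0167) in the knockout and 3.47 ± 0.74 (adjusted p = 0.0023) in the wild type. The rat has several near-identical kininogen genes among which reads can be shared. RefSeq now lists the name Kng1 also as a synonym of Kng2 and Kng2l1. The row name Kng1l1 is no present symbol but a synonym of the present Kng1. The row Kng1 thus cannot be tied to 1 present gene, and its rise is that of the row only. Kng2 (log2 fold -0.60 ± 0.24 (adjusted p = 0.0522) in the knockout and -0.083 ± 0.23 (adjusted p = 0.807) in the wild type) and Kng1l1 (-0.63 ± 0.38 (adjusted p = 0.192) and -0.18 ± 0.38 (adjusted p = 0.729)) were not called. Summed over the 3 rows the log2 fold was -0.56 ± 0.33 (adjusted p = 0.188) in the knockout and -0.08 ± 0.33 (adjusted p = 0.875) in the wild type. The summed kininogen rows were thus not called in either genotype. The knockout call of Kng1 was also lost without the knockout on MCD number 4 (adjusted p = 0.0523).

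The 3 serpins restrain thrombin and plasmin. Antithrombin (Serpinc1) inhibits thrombin and factor X. Levels of Serpinc1 in the knockout were 895, 909, 941 and 1080.1 CPM on MCD, against 2756, 2551, 2311 and 1899 CPM on chow. Wild-type levels of Serpinc1 were 1033, 798, 1020.1 and 1012 CPM on MCD, against 2634, 2489, 2769 and 2162 CPM on chow. The MCD libraries reached less than the lowest chow library in both genotypes, with a log2 fold of -1.31 ± 0.17 (adjusted p = 3.65e-05) in the knockout and -1.38 ± 0.17 (adjusted p = 3.04e-05) in the wild type. Serpinf2 encodes the main inhibitor of plasmin. Levels of Serpinf2 in the knockout were 442, 395, 452 and 453 CPM on MCD, against 952, 978, 932 and 1063 CPM on chow. Wild-type levels of Serpinf2 were 447, 341, 422 and 463 CPM on MCD, against 1103, 958, 998 and 916 CPM on chow. Serpinf2 did not overlap between diets and had a log2 fold of -1.17 ± 0.15 (adjusted p = 2.92e-05) in the knockout and -1.25 ± 0.15 (adjusted p = 2.14e-05) in the wild type. Serpind1 encodes heparin cofactor II, a further thrombin inhibitor. Levels of Serpind1 in the knockout were 292, 407, 434 and 437 CPM on MCD, against 661, 753, 686 and 347 CPM on chow. Wild-type levels of Serpind1 were 463, 328, 441 and 371 CPM on MCD, against 609, 669, 478 and 539 CPM on chow. Its ranges overlapped in the knockout, through number 4 labelled knockout on chow, but parted in the wild type. The log2 fold was -0.64 ± 0.23 (adjusted p = 0.0333) in the knockout and -0.52 ± 0.23 (adjusted p = 0.0856) in the wild type, and the knockout call was lost without its chow number 1, 2 or 3 or MCD number 1 or 2 (adjusted p up to 0.0979). The difference between genotypes was -0.12 ± 0.32 (unadjusted p = 0.707). Without the 3 libraries that stood apart Serpind1 was called lower in both genotypes (adjusted p = 0.00138 in the knockout and 0.00546 in the wild type). DESeq2 on all libraries also called it lower in both (adjusted p = 0.00851 and 0.0492).

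Both members of fibrinolysis fell. Plg encodes plasminogen, the precursor of plasmin that dissolves fibrin. Levels of Plg in the knockout were 1913, 2257, 1913 and 2418 CPM on MCD, against 3555, 3899, 3749.6 and 3189 CPM on chow. Wild-type levels of Plg were 2067, 1824, 2328 and 2203 CPM on MCD, against 3535, 3914, 2993 and 3144 CPM on chow. Plg was lower in all MCD libraries, with a log2 fold of -0.76 ± 0.16 (adjusted p = 0.00184) in the knockout and -0.69 ± 0.16 (adjusted p = 0.00418) in the wild type. Cpb2 encodes a carboxypeptidase that slows fibrin breakdown. Levels of Cpb2 in the knockout were 409, 316, 313 and 307 CPM on MCD, against 679, 665, 658 and 710.3 CPM on chow. Wild-type levels of Cpb2 were 301, 266, 369 and 329 CPM on MCD, against 557, 633, 594 and 873 CPM on chow. Cpb2 did not overlap between diets and had a log2 fold of -1.01 ± 0.17 (adjusted p = 0.000404) in the knockout and -1.07 ± 0.17 (adjusted p = 0.000318) in the wild type. Genes of opposite action on clotting fell side by side: procoagulant F2, F10 and F12, anticoagulant Serpinc1, Proc and Pros1, profibrinolytic Plg and antifibrinolytic Serpinf2 and Cpb2.

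Both genotypes gave nearly the same order of diet effects. The knockout and wild-type diet folds, which share no library, correlated at 0.96 (Pearson) and 0.911 (Spearman) over the 33 members, and at 0.913 (Pearson) over 31 without Kng1 and F5. This is a description across genes, which share the same 16 libraries and scaling. For 22 members the fold was lower in the knockout and for 11 it was higher. The difference of the diet effects was called for 0 of 33 members and 0 of 11162 genes by edgeR (0% called). At an unadjusted p under 0.05 were 0 members, against 330 of 11162 genes. DESeq2 called 0 members and 1 gene. The smallest p-values were those of C8a (-0.42 ± 0.24, unadjusted p = 0.103, 95% interval -0.95 to 0.11) and C9 (-0.53 ± 0.31, unadjusted p = 0.11, -1.21 to 0.15). Half-widths of the 95% intervals had a median of 0.656 on the log2 scale and the widest was 2.098. Leaving out the 3 libraries that stood apart, the difference was again called for 0 of 33 members, where 20 of 11220 genes were called (0.178%, with 0.16% higher and 0.0178% lower). At an unadjusted p under 0.05 were then 9 members, all 9 with the lower fold in the knockout. They were Kng1 (-2.45 ± 0.48, unadjusted p = 0.000228, adjusted p = 0.0573), F13b, C8a (-0.60 ± 0.18, unadjusted p = 0.00449), Mbl2 (-0.84 ± 0.27, unadjusted p = 0.00633), C1s, Cfi, F9, C9 and C6. Their adjusted p-values ran up to 0.265. The number of all genes at an unadjusted p under 0.05 without the 3 libraries is not given here. The 9 members thus have no background beside them.

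On the MCD diet 0 of 33 members were called between knockout and wild type, as were 0 of all genes (0% called). DESeq2 called 0 members. At an unadjusted p under 0.05 were 0 members, against 81 of 11162 genes. The median log2 fold between genotypes was -0.014 over the members and 0.002 over all genes. The smallest p-values were those of Cfd and Kng1, whose levels are given above. Cfd averaged 8.39 ± 3.71 CPM in the knockout and 6.22 ± 1.89 CPM in the wild type (log2 fold 0.43 ± 0.29, 95% interval -0.21 to 1.07, adjusted p = 1). Kng1 averaged 92.1 ± 50.6 CPM in the knockout and 165 ± 65.5 CPM in the wild type (log2 fold -0.84 ± 0.67, -2.30 to 0.62, adjusted p = 1). The libraries of both genotypes overlapped for all 33 members, as they did for 11073 of all 11162 genes. For C6 the interval of the fold was -0.62 to 0.39, for Serpinc1 -0.37 to 0.34 and for F2 -0.30 to 0.58.

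On chow 0 of 33 members were called either, where 1 of all genes was called (0.00896%), and DESeq2 called 0 members. At an unadjusted p under 0.05 were 0 members, against 1153 of 11162 genes. Folds of the knockout over the wild type were above 0 for 25 members and below 0 for 8, with a median of 0.092 against -0.017 over all genes. The smallest p-values were those of Cfi and F2. Cfi averaged 1350.0 ± 149.7 CPM in the knockout and 1071 ± 125 CPM in the wild type (log2 fold 0.33 ± 0.16, 95% interval -0.017 to 0.69, adjusted p = 0.478). F2 averaged 3311 ± 821 CPM in the knockout and 2478 ± 353 CPM in the wild type (log2 fold 0.42 ± 0.20, -0.023 to 0.86, adjusted p = 0.478). F12 was the member whose knockout libraries all lay above the wild-type ones (857 to 1607 CPM, against 779.6 to 857 CPM). Such a separation was found for 1.75% of all genes. For F12 it was nearly a tie, with the lowest knockout library at 857.174 CPM and the highest wild-type library at 857.168 CPM.

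Without the 3 libraries that stood apart, 3 members were called higher in the knockout on chow, where 1.81% of all genes were called higher and 2.79% lower (4.6% either way). Kng1 then had 22.5, 19.4 and 28.6 CPM in the knockout, against 5.10, 9.30 and 3.90 CPM in the wild type (log2 fold 1.92 ± 0.37, adjusted p = 0.0226). F13b had 357, 337 and 369 CPM in the knockout, against 216, 280.1 and 192 CPM in the wild type (0.63 ± 0.15, adjusted p = 0.0333). Mbl2 had 122, 169.5 and 195 CPM in the knockout, against 103, 112 and 70.1 CPM in the wild type (0.77 ± 0.20, adjusted p = 0.0397). For each of these genes the wild type on chow number 4 had been the highest library of its group, at 40.7, 481 and 376 CPM. These calls thus rest on leaving out the 3 libraries, and comparisons on chow share the chow libraries with the diet comparisons above.

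**Figure D5:**
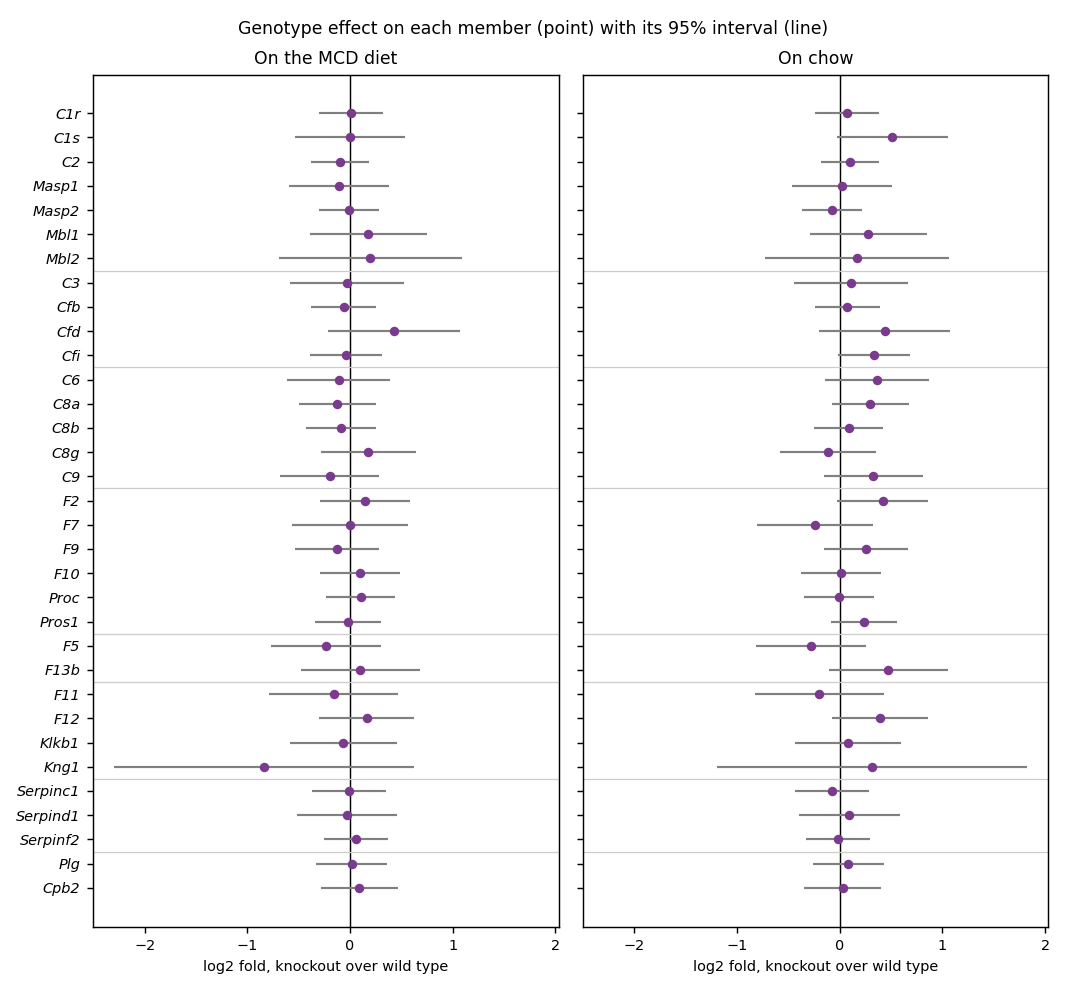
Log2 fold of knockout over wild type for each of 33 members (points) with its 95% interval (lines), on the MCD diet in the left panel and on chow in the right panel. Every interval crosses 0 in both panels, and Kng1 has the widest.

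Other genes of the same cascades were counted from lists. Over all genes, 21.9% were called higher and 18.5% lower in the knockout, and 18.2% higher and 15.9% lower in the wild type. Of 10 other complement components tested 3 fell and 0 rose in the knockout, and 2 fell and 0 rose in the wild type. Properdin (Cfp), which stabilises the alternative convertase, had a log2 fold of -0.78 ± 0.18 (adjusted p = 0.00274) in the knockout and -0.82 ± 0.18 (adjusted p = 0.00244) in the wild type. Crp, C-reactive protein, which can start the classical pathway, had -1.28 ± 0.32 (adjusted p = 0.00483) in the knockout and -1.22 ± 0.31 (adjusted p = 0.00764) in the wild type. C1qa, a chain of C1q, had -0.63 ± 0.23 (adjusted p = 0.0344) in the knockout and -0.50 ± 0.22 (adjusted p = 0.0954) in the wild type. Of 15 complement regulators and receptors 6 rose and 5 fell in the knockout, and 7 rose and 3 fell in the wild type. Vtn, vitronectin, which blocks pore insertion, had a log2 fold of -1.14 ± 0.24 (adjusted p = 0.00185) in the knockout and -1.22 ± 0.24 (adjusted p = 0.00148) in the wild type. C4bpb, a chain of C4b-binding protein, had -1.10 ± 0.21 (adjusted p = 0.000889) in the knockout and -0.94 ± 0.21 (adjusted p = 0.00306) in the wild type. C4bpa, its partner chain, had -1.38 ± 0.29 (adjusted p = 0.00164) in the knockout and -0.55 ± 0.28 (adjusted p = 0.14) in the wild type. Clu, clusterin, which also inhibits the terminal complex, moved upward, with 1.28 ± 0.27 (adjusted p = 0.00165) in the knockout and 0.97 ± 0.27 (adjusted p = 0.0111) in the wild type.

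All 3 fibrinogen chains, which form the clot, fell in both genotypes. Fga averaged 3201 ± 478 CPM on MCD and 5578 ± 534 CPM on chow in the knockout. Wild-type Fga averaged 3352 ± 744 CPM on MCD and 4932 ± 237 CPM on chow (SD, n = 4 each). The log2 fold of Fga was -0.80 ± 0.18 (adjusted p = 0.00295) in the knockout and -0.56 ± 0.18 (adjusted p = 0.0268) in the wild type. Over all genes, 18.5% were called lower and 21.9% higher in the knockout, and 15.9% lower and 18.2% higher in the wild type. In this list of 11 tested clotting genes 3 fell and 3 rose in each genotype. Those that rose were F3 (tissue factor, which triggers clotting), Vwf (von Willebrand factor of endothelium) and Lman1. Lman1 carries factors V and VIII out of the endoplasmic reticulum, and its log2 fold was 1.08 ± 0.23 (adjusted p = 0.00175) in the knockout and 1.19 ± 0.23 (adjusted p = 0.00111) in the wild type. In the vitamin K cycle 1 of 5 genes fell and 0 rose in the knockout, and 1 fell and 1 rose in the wild type. Vkorc1, the epoxide reductase that warfarin blocks, had a log2 fold of -1.38 ± 0.21 (adjusted p = 0.000134) in the knockout and -1.37 ± 0.21 (adjusted p = 0.000172) in the wild type. Nqo1, a quinone reductase, had 0.49 ± 0.24 (adjusted p = 0.116) in the knockout and 0.82 ± 0.24 (adjusted p = 0.0161) in the wild type.

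Of 18 regulators and receptors of clotting and fibrinolysis 6 rose and 0 fell in the knockout, where 21.9% of all genes were called higher and 18.5% lower. In the wild type 7 of the 18 rose and 2 fell, against 18.2% of all genes called higher and 15.9% lower. A2m, alpha-2-macroglobulin, a broad protease inhibitor and an acute-phase protein of the rat, averaged 148 ± 45.6 CPM on MCD and 8.90 ± 4.92 CPM on chow in the knockout. Wild-type A2m averaged 166 ± 38.9 CPM on MCD and 13.3 ± 5.22 CPM on chow. Its log2 fold was 4.05 ± 0.41 (adjusted p = 6.34e-06) in the knockout and 3.66 ± 0.40 (adjusted p = 1.3e-05) in the wild type. S100a10 and Anxa2, which form a plasminogen-binding complex on cell surfaces, had 2.27 and 2.60 in the knockout and 2.17 and 2.20 in the wild type, all called. Plaur, the urokinase receptor, had 2.14 ± 0.41 (adjusted p = 0.000841) in the knockout and 2.35 ± 0.41 (adjusted p = 0.000568) in the wild type.

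Genes known to control liver secretion were counted in the same way. Of 15 hepatocyte transcription factors 3 rose and 3 fell in the knockout, where 21.9% of all genes were called higher and 18.5% lower. In the wild type 2 of the 15 rose and 5 fell, against 18.2% of all genes called higher and 15.9% lower. Nr1h4, the bile acid receptor, had a log2 fold of -1.09 ± 0.27 (adjusted p = 0.00496) in the knockout and -1.06 ± 0.27 (adjusted p = 0.00737) in the wild type. Foxa2, a pioneer factor of liver genes, had -0.42 ± 0.35 (adjusted p = 0.338) in the knockout and -1.33 ± 0.35 (adjusted p = 0.00879) in the wild type. For the factors whose letters were searched above, Cebpa had -1.03 ± 0.31 (adjusted p = 0.0151) in the knockout and -0.99 ± 0.31 (adjusted p = 0.0218) in the wild type. Hnf4a had -0.48 ± 0.22 (adjusted p = 0.0964) in the knockout and -0.27 ± 0.22 (adjusted p = 0.356) in the wild type and was called in neither. Of 9 genes of acute-phase signalling 6 rose and 0 fell in the knockout, and 7 rose and 1 fell in the wild type. They include Osmr, the oncostatin M receptor (3.68 ± 0.37 (adjusted p = 6.33e-06) in the knockout and 3.02 ± 0.34 (adjusted p = 1.68e-05) in the wild type), and Stat3, the main transcription factor of this response (0.91 ± 0.19 (adjusted p = 0.00183) in the knockout and 1.19 ± 0.19 (adjusted p = 0.000323) in the wild type). Whether any of these genes bears on the members was not tested.

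Markers of several cell types moved with diet, and their part in the results was not tested. Beside the counts of markers, 21.9% of all genes were called higher and 18.5% lower in the knockout. The wild-type shares were 18.2% and 15.9%. All 10 hepatocyte markers were measured, of which 5 fell in the knockout and 6 in the wild type. Their summed level was 107385 to 130513 CPM in the MCD-fed and 191717 to 247474 CPM in the chow-fed knockout. In the wild type it was 102081 to 143015 CPM on MCD and 181499.9 to 219309 CPM on chow, so the MCD ranges lay below the chow ranges in both, as for the members. Albumin itself had a log2 fold of -1.05 ± 0.18 (adjusted p = 0.000389) in the knockout and -0.81 ± 0.18 (adjusted p = 0.00275) in the wild type. Bile duct markers summed to 74.8 to 118 CPM in the MCD-fed and 17 to 32.0 CPM in the chow-fed knockout, and to 71.8 to 130.3 CPM in the MCD-fed and 16.6 to 38.6 CPM in the chow-fed wild type, with 2 of 4 called higher in each genotype. Stellate cell markers summed to 451 to 671 CPM in the MCD-fed and 241 to 369 CPM in the chow-fed knockout, with 3 of 9 called higher. Wild-type libraries had 447 to 1275 CPM of them on MCD and 282 to 502 CPM on chow, with 2 of 9 called higher.

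Red blood cell markers summed to 119 to 169.9 CPM in the MCD-fed and 599.7 to 5066 CPM in the chow-fed knockout, and to 99.9 to 271 CPM in the MCD-fed and 1313 to 1938 CPM in the chow-fed wild type. All 6 fell in both genotypes. Of 8 macrophage markers 3 rose and 2 fell in each genotype. In the knockout 3 of 7 endothelial markers, 1 of 5 lymphocyte markers and 1 of 2 adipocyte markers rose, and 1 of 2 neutrophil markers fell. The lone platelet marker tested was not called, and of 3 exocrine pancreas markers 1 rose and 1 fell. The wild type had 2 of 7 endothelial markers higher and 1 lower, and 1 of 5 lymphocyte markers higher and 1 lower, with none of the neutrophil or adipocyte markers called. The neutrophil markers Mpo and Elane were at 0 in all 8 MCD libraries, as were the pancreas markers Prss1, Cpa1 and Pnlip and the platelet marker Ppbp. An index of long minus short messages, a sign of RNA quality, also moved with diet. It was 1.24 to 1.70 in the MCD-fed knockout apart from -0.772 in number 1, and -1.60 to 0.175 in the chow-fed knockout. In the wild type it was 1.16 to 1.76 on MCD and -0.578 to 0.291 on chow. With this index in the model 24 members fell and 0 rose in the knockout (11.9% and 14% of all genes, 25.8% either way), and 19 fell and 0 rose in the wild type (13.6% and 14.1%, 27.7% either way). Neither F5 nor Kng1 (adjusted p = 0.261 in the knockout and 0.104 in the wild type) was then called. Of the 20 members that fell in both genotypes 15 still fell in both. Masp1, F7, F11 and Serpind1 were newly called lower in both genotypes. C3 was then called lower in the knockout (log2 fold -0.74 ± 0.24, adjusted p = 0.0345) but not in the wild type (-0.62 ± 0.25, adjusted p = 0.0711). As the index moved with diet, its part in these calls cannot be told apart from that of diet.

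Genes outside the list with the most similar pattern were Pex13, Suox and Cyp4v3. Their log2 CPM had Pearson correlations of 0.975, 0.97 and 0.967 with the mean standardised level of the members over the 16 libraries, as a description of these libraries, which share their scaling and the diet groups. Several members are genomic neighbours in GRCr8, where 5 pairs lie next to each other. F10 and F7 on chromosome 16 had unlike folds (-1.19 and -0.31 in the knockout, -1.28 and -0.55 in the wild type). So did C2 and Cfb on chromosome 20 (-0.12 and -0.77 in the knockout, 0.077 and -0.64 in the wild type). Klkb1 and F11 on chromosome 16 had folds near each other (-0.90 and -0.70 in the knockout, -0.76 and -0.74 in the wild type).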

How the data were processed

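Liver RNA was sequenced after a stranded mRNA library preparation, per the labels' protocols. The authors deposited expected counts per gene, made with RSEM, and a normalised signal in CPM scaled by TMM; tools listed in the submitters' processing notes are Bowtie2 2.1.0 and RSEM 1.2.15, with build rn6. The sources used here give no annotation or strand setting. RSEM shares reads among near-identical genes (88.9% of the expected counts were whole numbers), which makes the kininogen rows uncertain. The deposited signal was a fixed multiple, in each library, of the rounded count (relative tolerance 1e-06).

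Counts were rounded to whole numbers and tested in R 4.3.3 with edgeR 4.0.16: filterByExpr, TMM, 1 term per group and the robust quasi-likelihood test (12 residual degrees of freedom, common biological variation 28%), with Benjamini-Hochberg adjustment over 11162 genes. SEs were taken as the size of the log2 fold divided by the root of F, and 95% intervals use the SE with the residual degrees of freedom. No 2 libraries of a group were repeats (chi-square per gene 15.3 to 383.9). Promoters were matched by symbol to RefSeq GRCr8, a build other than rn6, used for names, neighbours and sequences only. DESeq2 1.42.0 and other scalings, filters and sample sets were tried as alternatives. The procedure was tested on simulated data.

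The members, gene lists and tests were chosen with earlier results of these data known. Values per library are given for up to 3 members per role with the smallest diet p, for the 2 members with the smallest p in each comparison without calls, and for members called in 1 genotype; C3, the neighbour pairs, Kng2, Kng1l1, Fgb and Fgg, Alb and the factors tied to the motifs (Cebpa and Hnf4a) were added after their values were seen. Genes outside the list come from fixed gene lists, up to 4 called per list with the smallest p, and the 3 most like genes by Pearson correlation. Some results on regulators and on a searched motif are not reported here. Reads lack molecular identifiers, so counts are not independent molecules.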

Additional observations from a re-analysis of the deposited data

Results flagged for a closer look

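In 136 groups of 4 libraries (33 members and their summed level in 4 groups), 11 values had a library far from the other 3, by Dixon's 95% criterion on the gap relative to the range. Tspo was not included. Chance flags about 1 in 20 groups. Of the 11, 5 came from the library labelled knockout on chow number 4, 2 from the library labelled knockout on MCD number 1 and 2 from the wild type on chow number 4, the 3 libraries that also stood apart over all genes.

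F2 in the library labelled knockout on chow number 4 was 4536 CPM, against 2798 to 2989.8 CPM in the other 3 libraries. F12 there was 1607 CPM, against 857 to 886 CPM in the other 3 libraries. F13b was likewise high, at 557 CPM, against 337 to 369 CPM in the other 3 libraries. C8b was low in it, at 512 CPM, against 622 to 634 CPM in the other 3 libraries. F9 was low too, at 540.0 CPM, against 883 to 915 CPM in the other 3 libraries.

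In the library labelled knockout on MCD number 1, Cpb2 was 409 CPM, against 307 to 316 CPM in the other 3 libraries. F7 was 23.4 CPM, against 30.9 to 31.9 CPM in the other 3 libraries. In the wild type on chow number 4, Mbl2 was 376 CPM, against 70.1 to 112 CPM in the other 3 libraries. Kng1 in the same library was 40.7 CPM, against 3.90 to 9.30 CPM in the other 3 libraries. The wild type on MCD number 4 had Kng1 at 263 CPM, against 126 to 139 CPM in the other 3 libraries. In the wild type on MCD number 2, Serpinc1 was 798 CPM, against 1012 to 1033 CPM in the other 3 libraries. No member was called in the test of the difference of the diet effects.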

How the results depend on the processing

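With library totals and no scaling factor, an alternative chosen after seeing the data, the members called fell to 10 in the knockout (4 higher and 6 lower) and 12 in the wild type (4 higher and 8 lower), and 4 called members changed sign: Masp2 (0.107), Proc (0.0768) and Serpind1 (0.0613) in the knockout and Cfi (0.0596) in the wild type. Scaling defines these differences. The 3 kininogen rows summed had a log2 fold of -0.557 in the knockout and -0.0775 in the wild type, where the row Kng1 alone had 2.32 and 3.47. The sum is another quantity and does not test the rise of the row Kng1. Testing for changes larger than 0.5 (log2) called 16 members in the knockout and 12 in the wild type. Without the 3 libraries that stood apart 3 members were called between genotypes on chow, where the full set had 0; the cause was not tested. Relative log expression and upper quartile scaling, no filter, no robust moderation, only the 2 groups compared and DESeq2 gave 23 to 27 members in the knockout and 22 to 25 in the wild type. With the long minus short index, also chosen after seeing the data, 24 and 19 were called; the planned index from protein lengths was not run, as no protein table was used here.

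Leaving out 1 library at a time gave 23 to 27 members in the knockout and 19 to 25 in the wild type, and 0 to 0 between genotypes on chow, on MCD and for the difference of the diet effects. Of the single values 18 lost the call and 718 kept it. The lost calls were of C9, Cfd, Cfi and Klkb1 in the wild type and Kng1 and Serpind1 in the knockout. With the replicate number as a block 24 and 22 members were called and 1 single call was lost, Serpind1 in the knockout (adjusted p = 0.0569). Same-numbered libraries had residual correlations of -0.316 to 0.511. On chow 3 of the 4 pairs of knockout and wild type were above 0.1 (0.232, 0.179 and 0.511, the other at -0.067), but in no comparison were all pairs, so the numbers were not taken to pair the samples.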
